A study of Mus musculus with 4 samples.

Results

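The genes described here are the receptor of colony-stimulating factor 1 (Csf1r), its ligand Csf1, and 3 further receptor genes of the colony-stimulating factor family: Csf2ra, Csf2rb and Csf3r. They were taken by symbol from the 32372 gene features of the deposited matrices, and all 5 were found. CSF1 and a second ligand, interleukin 34, act on the receptor tyrosine kinase CSF1R, whose signal microglia need for their survival. The products of Csf2ra and Csf2rb form the receptor of granulocyte-macrophage colony-stimulating factor, and Csf3r encodes the receptor of granulocyte colony-stimulating factor. Microglia around amyloid plaques are known to take up a neurodegenerative phenotype (MGnD, also called disease-associated), and Csf1 is often listed among its genes.

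Myeloid cells positive for CD11b and CD45 were sorted from the left brain hemisphere of APP/PS1 mice, an amyloid model of Alzheimer's disease. All mice were 4 months old and labelled female, and each library was 1 biological replicate made with 10x Genomics 3′ chemistry. One genotype was APP/PS1:miR-155 cKO (2 libraries, cKO), in which the microRNA miR-155 was deleted in microglia, and it was set against APP/PS1 (2 libraries, Control). The labels do not name the Cre driver or the deleted part of the locus, and all groups carry the amyloid transgenes.

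The filter of at least 1000 unique molecular identifiers (UMIs), 500 genes and at most 10% mitochondrial UMIs left 3828 and 2852 cells in cKO and 4351 and 2909 in Control, 13940 in all. Their median depth was 6183 and 7236 UMIs per cell in cKO and 6158 and 6426 in Control. Any pair of libraries shared 1 to 4 cell barcodes. The median cell had a UMI for 10 of the 10 microglia markers looked for, and 13876 cells had at least 3 of them. Mir155hg, the host transcript of miR-155, had 1 and 1 UMIs in cKO and 7 and 11 in Control, too few to check the labels. Xist stood at 1894 and 1819 CPM (UMIs of a gene scaled to a common library total) in cKO, against 0.704 and 1756 CPM in Control, so that Control replicate 1 went against its female label. The Y-linked genes Ddx3y, Uty, Kdm5d and Eif2s3y had 0 to 4 UMIs each in every library. The main results on the cell states, on Csf1-positive cells and on Csf1 by genotype are therefore also given without Control replicate 1. The name of cKO replicate 2 carries a different run code from the other 3 libraries, so that code and the replicate cannot be told apart.

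In the mature sequence of miR-155-5p (RefSeq, GRCm38.p6, chr16:84714143-84714165, plus strand), shown because its deletion defines the cKO genotype, capitals mark the seed, bases 2 to 8.
miR-155-5p: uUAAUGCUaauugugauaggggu
The seed match AGCATTA was found at 1 place in the annotated 3′ untranslated region of Csf1r, at base 643 of 1669, and at 0 places in those of Csf1, Csf2ra, Csf2rb, Csf3r and Csf2rb2 (GENCODE M21, GRCm38, strand of the transcript). A match is a description of the sequence only.

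Csf1r lies on chromosome 18 at 61100598 to 61132149 (plus strand, GRCm38), where Hmgxb3 on the opposite strand and the microRNA gene Mir6983 overlap it. The strand setting of the counting is not given in the sources used here. Csf1 lies on chromosome 3 at 107741048 to 107760469 (minus), Csf2ra on chromosome 19 at 61223957 to 61228429 (minus), Csf2rb on chromosome 15 at 78325752 to 78353847 (plus) and Csf3r on chromosome 4 at 126024550 to 126044440 (plus). Csf2rb has a close relative, Csf2rb2, which encodes the mouse interleukin 3 receptor beta chain. Of the 50-base windows of their longest transcripts, 18.4% of those of Csf2rb occurred in Csf2rb2, but 0% of those in the last 1000 bases, where 3′ libraries place most reads.

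Over all cells, Csf1r stood at 2183 and 2593 CPM in cKO, against 2370 and 2009 CPM in Control, and 96.5% to 98.3% of cells thinned to 2000 UMIs held a Csf1r UMI. Csf1 stood at 86.1 and 65.1 CPM in cKO, against 89.2 and 104 CPM in Control. The Csf1r values of the groups overlapped. Those of Csf1 did not, and nor did those of 42.4% of all genes tested. Csf2ra, the alpha chain that binds the ligand, stood at 107 and 89.6 CPM in cKO, against 105 and 100 CPM in Control. Csf2rb, the shared signalling beta chain, stood at 63.8 and 70.3 CPM in cKO, against 55.5 and 58.7 CPM in Control. Csf3r stood at 238 and 229 CPM in cKO, against 219 and 204 CPM in Control. The groups overlapped for Csf2ra and not for Csf2rb or Csf3r. The other ligands were nearly absent from these cells: Csf2 had 0 UMIs in all libraries, where 3 counts would be 0.0782 to 0.118 CPM, and Il34 and Csf3 had 1 UMI each in all libraries together. Csf2rb2 had 19.1 and 24.4 CPM in cKO, against 15.7 and 15.6 CPM in Control, close to its level in free RNA.

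Free RNA, taken from barcodes of at most 100 UMIs, made up 14.9% and 17.8% of UMIs in cKO and 11.2% and 16.3% in Control. At its composition, 2000 UMIs would give a Csf1 UMI in 8.86% and 7.40% of droplets in cKO and 9.94% and 10.7% in Control. At this depth 10.3% and 7.91% of cells in cKO and 10.4% and 11.4% in Control were Csf1-positive, so over all cells the share lay close to that of droplets made wholly of free RNA. Free RNA is only part of a cell's UMIs, so these values are not a cell's background, and P2ry12, a core microglial gene, also had a UMI in fewer cells than such droplets would give in every library. Without thinning the Csf1-positive share was 28.2% and 22.5% in cKO and 27.2% and 29.0% in Control. Too few cells of a type without Csf1 were captured to measure its background in cells. For Csf1r, 2000 UMIs of free RNA would give a UMI in 96.6% and 97.3% of droplets in cKO and 97.3% and 95.9% in Control. The share of Csf1r-positive cells thus also lay close to that of such droplets. Csf3r stood at 172 and 212 CPM in free RNA in cKO and 156 and 147 CPM in Control. The contrast in Csf1 lay between states, as follows.

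Cell states were set after thinning every cell with at least 2000 UMIs to that depth, which kept 3585 and 2666 cells in cKO and 3999 and 2633 in Control. A cell was MGnD-high with a UMI for at least 3 of 12 genes such as Clec7a, Lpl and Itgax, a list without Csf1. It was called cytokine with UMIs for both Tnf and Ccl4, and cycling with at least 3 of 12 division genes such as Mki67. MGnD-high cells numbered 554 and 207 in cKO and 773 and 495 in Control, cytokine cells 107 and 76 in cKO and 59 and 71 in Control, and cycling cells 54 and 18 in cKO and 64 and 28 in Control. Near the MGnD threshold lay 999 cells with 2 such genes and 840 with 3.

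Csf1 was the member with the clearest state difference. In MGnD-high cells it stood at 226 and 249 CPM in cKO and 201 and 198 CPM in Control, against 37.1 and 30.4 CPM in cKO and 36.1 and 41.9 CPM in Control in cells of no state. The MGnD-high and no-state values did not overlap, and the ratio was 4.72 to 8.17 across the 4 libraries. The log2 difference was 2.85 ± 0.08 (SE, n = 4 libraries) with an adjusted p of 2.24e-50 (edgeR quasi-likelihood test with the library as a block, Benjamini-Hochberg over 10231 genes). Here and below, the SE of a log2 difference comes from the edgeR fit and is not the spread between libraries. A Csf1 UMI was found in 31.4% and 32.9% of MGnD-high cells in cKO and 27.4% and 30.1% in Control, against 6.35% and 5.54% of no-state cells in cKO and 6.17% and 6.98% in Control. In every library the MGnD-high shares were above, and the no-state shares below, those of droplets made wholly of free RNA. Without Control replicate 1 the log2 difference was 2.88.

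Csf1r moved the other way. In MGnD-high cells it stood at 1597 and 1915 CPM in cKO and 1783 and 1365 CPM in Control, against 2279 and 2657 CPM in cKO and 2549 and 2202 CPM in Control in cells of no state. It was lower in each of the 4 libraries, at 0.620 to 0.721 of the no-state level. The log2 difference was -0.24 ± 0.04 (SE, n = 4 libraries, adjusted p = 1.69e-06, edgeR) with TMM scaling and -0.55 ± 0.04 with plain CPM, since plain scaling moved the median of all genes by -0.31. Relative to that median Csf1r was lower by -0.21 with either scaling. Without Control replicate 1 the TMM value was -0.26. In free RNA Csf1r stood at 1683 and 1798 CPM in cKO and 1804 and 1593 CPM in Control. This was below the no-state level in every library, and the MGnD-high level lay above it only in cKO replicate 2.

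Csf2ra was higher in MGnD-high cells, with 160 and 99.0 CPM in cKO and 156 and 147 CPM in Control, against 92.7 and 81.7 CPM in cKO and 94.7 and 77.8 CPM in Control in cells of no state. All 4 libraries were higher, by 1.21 to 1.90 times, with the smallest ratio in cKO replicate 2, on 41 UMIs in MGnD-high cells. The log2 difference was 1.04 ± 0.08 (SE, n = 4 libraries, adjusted p = 2.71e-21, edgeR) and 0.74 with plain CPM. Without Control replicate 1 it was 1.05. With no thinning Csf2ra stood at 144 and 132 CPM in MGnD-high cells in cKO and 145 and 137 CPM in Control. In cells of no state it then stood at 98.9 and 84.3 CPM in cKO and 90.1 and 85.7 CPM in Control, and cKO replicate 2 did not have the smallest ratio.

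The other receptor chains did not pass the test in MGnD-high cells. Csf2rb stood at 46.0 and 43.5 CPM in cKO and 42.7 and 45.5 CPM in Control, against 62.3 and 61.5 CPM in cKO and 57.6 and 65.0 CPM in Control in cells of no state. It was below the no-state level in all 4 libraries, with a log2 difference of -0.16 ± 0.12 (adjusted p = 0.320, edgeR with TMM) that passed with plain CPM (-0.46, adjusted p = 0.000453). Csf3r stood at 204 and 179 CPM in cKO and 219 and 171 CPM in Control, against 245 and 230 CPM in cKO and 209 and 195 CPM in Control in cells of no state. Its direction turned with the scaling, at 0.16 with TMM (adjusted p = 0.0522, edgeR) and -0.15 with plain CPM. It passed without cKO replicate 1 (0.21, adjusted p = 0.0378, edgeR) or cKO replicate 2 (0.19, adjusted p = 0.0190). It did not pass without Control replicate 1 (0.04, adjusted p = 0.762, edgeR) or Control replicate 2 (0.16, adjusted p = 0.134). In this comparison 3 of 5 members were called, 2 higher and 1 lower, against 37.7% of all genes tested (20.5% higher and 17.2% lower).

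**Figure D1:**
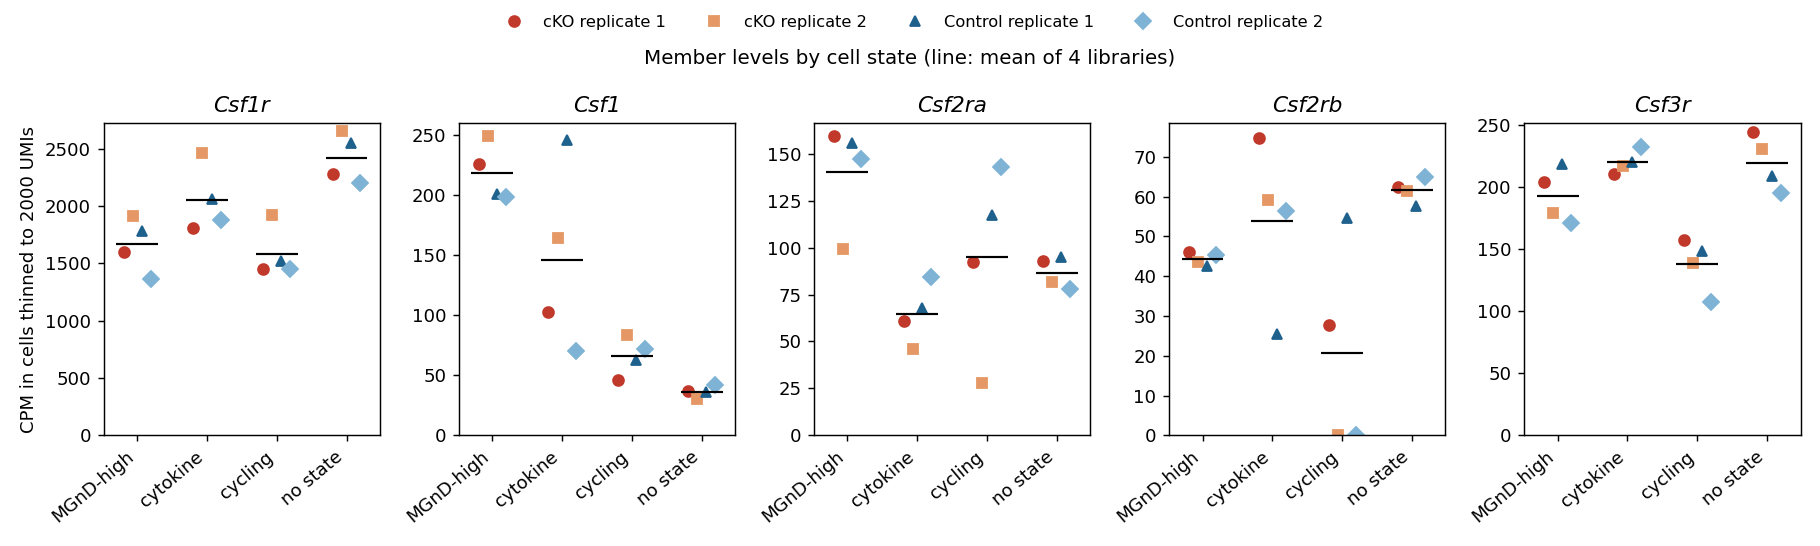
CPM of each of the 5 genes (y axis, each panel from 0) in cells thinned to 2000 UMIs, by cell state (x axis), with 1 point per library and a line at the mean of the 4 libraries. Csf1 averages 218 CPM in MGnD-high cells against 36.4 CPM in cells of no state, while Csf1r averages 1665 CPM against 2422 CPM.

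The number of MGnD genes in a cell gave the same picture in steps. With 0, 1, 2, 3 and 4 or more of the 12 genes, Csf1 stood at 26.4, 56.6, 98.9, 197 and 247 CPM in the first cKO library. In the second Control library it stood at 25.1, 56.7, 136, 179 and 212 CPM. Csf1 was higher at every step in each of the 4 libraries. Over the same steps Csf1r stood at 2363, 2098, 1785, 1678 and 1538 CPM in the first cKO library. In the second Control library it stood at 2293, 2015, 1810, 1474 and 1283 CPM. It was lower at every step in each of the 4 libraries. Csf2ra reached 184 and 102 CPM in cKO and 168 and 184 CPM in Control at 4 or more genes, against 84.2 and 77.7 CPM in cKO and 89.5 and 74.6 CPM in Control at 0 genes, with no even order between. These steps are a description, with no test.

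**Figure D2:**
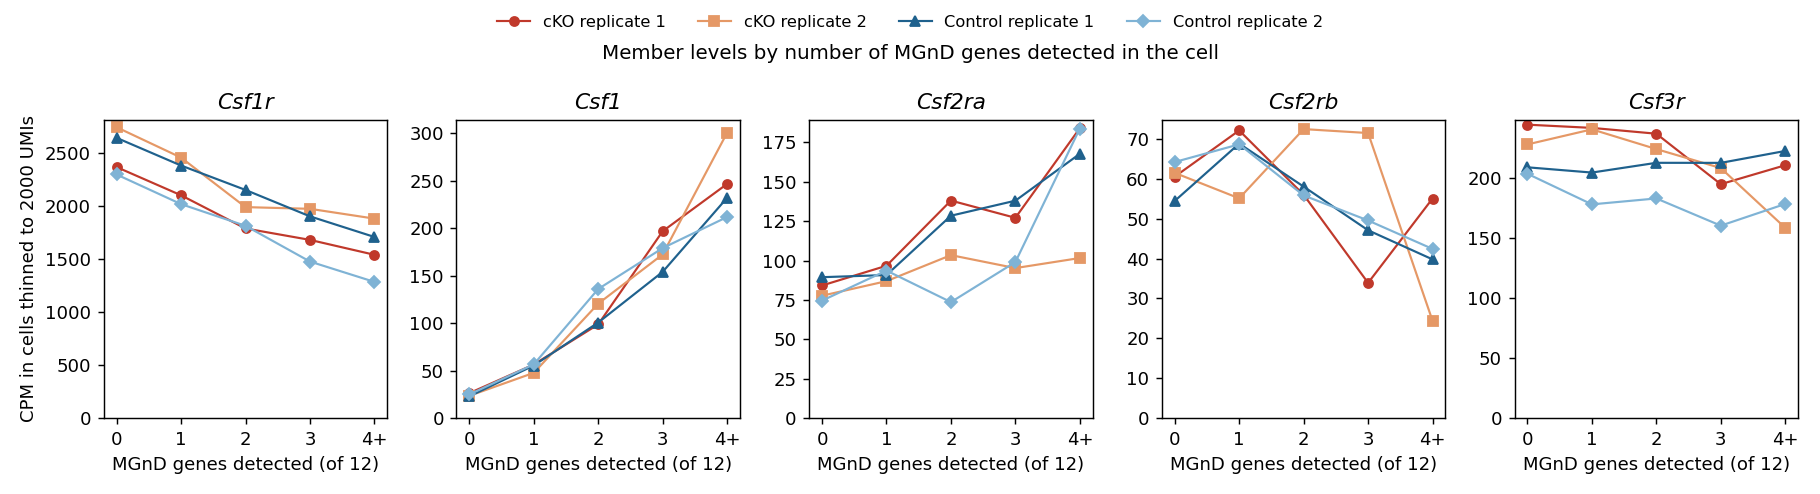
CPM of each gene (y axis) in cells thinned to 2000 UMIs, by the number of the 12 MGnD genes detected in the cell (x axis), with 1 line per library. At 4 or more genes the 4 Csf1 lines end between 212 and 301 CPM, and the 4 Csf1r lines between 1283 and 1878 CPM.

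Genes induced by tissue dissociation moved with Csf1r. The summed level of 14 such genes, among them Fos, Jun and Egr1, was 5643 and 6616 CPM in MGnD-high cells in cKO and 5532 and 4411 CPM in Control, against 12846 and 16249 CPM in cKO and 12718 and 11272 CPM in Control in cells of no state. Of the 14, 13 were lower and 1 was higher past the threshold, with a median log2 difference of -1.07, against -0.03 over all genes. Over the 16 sums of 4 states and 4 libraries, the genes whose log2 CPM followed Csf1r most closely, of 3083 with a mean of at least 50 CPM, were Fos (Pearson r = 0.963), Zfp36l2, Zfp36, Snx6 and Jun. For Csf1 they were Il4i1 (r = 0.936), Clec7a, Cadm1, Apbb2 and Ctsb. These sums share libraries and states, so the correlations are a description. The part of dissociation in the Csf1r values was not tested.

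In cytokine cells Csf1 stood at 103 and 164 CPM in cKO and 246 and 70.4 CPM in Control, higher than in cells of no state in all 4 libraries by 1.68 to 6.81 times. The counts behind this were small, with 22 and 25 UMIs in cKO and 29 and 10 in Control. The log2 difference was 1.91 ± 0.22 (SE of the fit, n = 4 libraries, adjusted p = 3.04e-16, edgeR over 9917 genes), and at 1000 UMIs per cell it was 1.00 with an adjusted p of 0.284. With DESeq2 it was 1.94 ± 0.31 (SE). Of the 313 cytokine cells 71 were also MGnD-high, 21 and 11 in cKO and 25 and 14 in Control. Without cells of more than 1 state the Csf1 difference was 1.31 (adjusted p = 0.000513, edgeR), and against all other cells it was 1.08 (adjusted p = 2.55e-06, edgeR). It was 1.58 without Control replicate 1. Csf1r stood at 1804 and 2461 CPM in cKO and 2059 and 1880 CPM in Control, lower than in cells of no state in all 4 libraries, with a log2 difference of -0.27 ± 0.07 (adjusted p = 0.00806, edgeR). Its call was lost under several other settings, among them leaving out cKO replicate 1 (-0.25, adjusted p = 0.205) and Control replicate 2 (-0.28, adjusted p = 0.0897). It was -0.27 and passed without Control replicate 1. Csf2ra, at 60.7 and 46.1 CPM in cKO and 67.8 and 84.5 CPM in Control, did not pass (-0.47, adjusted p = 0.366). With a wider definition of at least 3 of 6 cytokine genes Csf2ra turned to 0.45 and passed (adjusted p = 0.000404, edgeR). In this comparison 2 of 5 members were called, Csf1 higher and Csf1r lower, against 3.27% of all genes (1.85% higher and 1.42% lower).

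In cycling cells Csf1r stood at 1454 and 1917 CPM in cKO and 1516 and 1446 CPM in Control, again below the no-state level in all 4 libraries. The log2 difference was -0.80 ± 0.17 (SE, n = 4 libraries, adjusted p = 5.58e-05, edgeR over 9841 genes), beside a median of -0.24 over all genes, and without Control replicate 1 it was -0.83. Csf3r stood at 157 and 139 CPM in cKO and 148 and 107 CPM in Control, with a log2 difference of -0.77 ± 0.24 (adjusted p = 0.0128, edgeR) that was lost without cKO replicate 1 (-0.80, adjusted p = 0.0850) or Control replicate 2 (-0.72, adjusted p = 0.0623). Csf1 stood at 46.3 and 83.3 CPM in cKO and 62.5 and 71.4 CPM in Control from 3 to 8 UMIs per library, and did not pass (0.62 ± 0.40, adjusted p = 0.361, edgeR). Csf2rb had 3 and 0 UMIs in cKO and 7 and 0 in Control, where the libraries at 0 would reach 83.3 CPM (cKO) and 53.6 CPM (Control) with 3 counts. Its log2 difference of -1.15 did not pass (adjusted p = 0.0624, edgeR). It passed without Control replicate 1 (-2.29, adjusted p = 0.0121, on 3 UMIs in cycling cells), without scored doublets (-1.40, adjusted p = 0.0297) and with no thinning (-0.58, adjusted p = 0.00295). In this comparison 2 of 5 members were called, both lower, against 14.4% of all genes (6.96% higher and 7.48% lower). The 14 dissociation genes summed to 4861 and 8361 CPM in cycling cells in cKO and 4648 and 4732 CPM in Control.

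The cells with a Csf1 UMI were set against those without one at equal depth. Of 12883 cells, 1295 were Csf1-positive, and 79.5% ± 3.04 (SD, n = 4 libraries) of them carried a single Csf1 UMI. Among Csf1-positive cells 47.0% and 32.2% were MGnD-high in cKO and 51.2% and 49.7% in Control, against 11.8% and 5.66% of Csf1-negative cells in cKO and 15.6% and 14.8% in Control. The cytokine state held 3.51% and 7.11% of Csf1-positive cells in cKO and 3.38% and 3.33% in Control. Cells of no state made up 50% and 62.6% of the Csf1-positive cells in cKO and 47.1% and 48.0% in Control. How many of these express Csf1 could not be told from the counts. Before thinning, Csf1-positive cells were also deeper, with a median of 8776 and 8973 UMIs in cKO and 10104.5 and 11205.5 in Control, against 6245 and 7339 UMIs in cKO and 6294 and 6546 in Control for Csf1-negative cells.

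**Figure D3:**
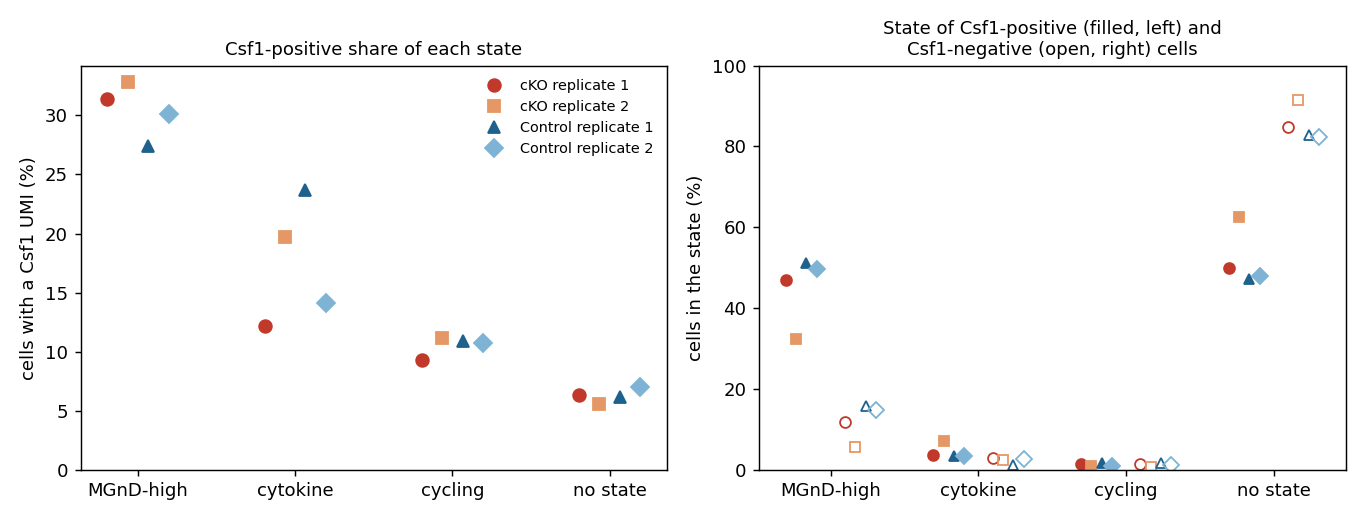
Left, the share of cells with a Csf1 UMI (y axis, percent) in each state (x axis); right, the share of Csf1-positive cells (filled) and Csf1-negative cells (open) in each state, with 1 point per library at 2000 UMIs per cell. MGnD-high cells sit between 27.4% and 32.9% Csf1-positive, all above the cells of no state at 5.54% to 6.98%.

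Csf1-positive cells were higher for Csf2ra, at 149 and 90.0 CPM in cKO and 150 and 135 CPM in Control, against 96.4 and 81.3 CPM in cKO and 101 and 85.3 CPM in Control in Csf1-negative cells. The log2 difference was 0.65 ± 0.09 (SE, n = 4 libraries, adjusted p = 9.07e-08, edgeR over 10169 genes). Within MGnD-high cells alone it was 0.12 (adjusted p = 0.860), and at 1000 UMIs per cell 0.37 (adjusted p = 0.211). Without Control replicate 1 it was 0.64 over all cells. Csf1r stood at 1934 and 2384 CPM in cKO and 2143 and 1832 CPM in Control, against 2187 and 2614 CPM in cKO and 2420 and 2064 CPM in Control, a log2 difference of -0.07 ± 0.03 (adjusted p = 0.235, edgeR) that passed with plain CPM (-0.17, adjusted p = 7.64e-05). Csf2rb (0.06, adjusted p = 0.865) and Csf3r (0.09, adjusted p = 0.497) did not pass. Of the 4 receptor genes tested 1 was called, higher, against 12.8% of all genes (8.05% higher and 4.77% lower).

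Of the 12 genes with the largest increase in Csf1-positive cells, 6 were among the 12 genes that define the state, which is no independent finding: Fabp5, Igf1, Lpl, Cst7, Clec7a and Axl. The other 6 were Cxcl10, an interferon-induced chemokine, Ank, Il4i1, an amino acid oxidase, Myo1e, Apoe, the lipid carrier apolipoprotein E, and Cox6a2. Apoe stood at 7411 and 5415 CPM in Csf1-positive cells in cKO and 6308 and 8322 CPM in Control, against 3006 and 1775 CPM in cKO and 2520 and 3173 CPM in Control in Csf1-negative cells, a log2 difference of 1.50 ± 0.03. Cxcl10 stood at 204 and 268 CPM in Csf1-positive cells in cKO and 19.3 and 20.0 CPM in Control, against 33.3 and 64.4 CPM in cKO and 7.39 and 14.6 CPM in Control in Csf1-negative cells, a log2 difference of 2.19 ± 0.15 (adjusted p = 2.94e-18, edgeR). Cxcl10 was 1.45 outside the cytokine state, 1.51 with no thinning, and -0.57 at 1000 UMIs per cell (adjusted p = 0.471, edgeR). Its SE was wider with DESeq2 (1.81 ± 0.44) and with no library block (2.11 ± 0.59, adjusted p = 0.0341, edgeR).

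Among the genes lower in Csf1-positive cells were Ttr, a choroid plexus transcript, Serpinf1, Siglece, an inhibitory lectin, Il7r, Lfng and Crybb1, a microglial crystallin gene. Crybb1 stood at 162 and 173 CPM in Csf1-positive cells in cKO and 132 and 107 CPM in Control, against 284 and 278 CPM in cKO and 259 and 251 CPM in Control in Csf1-negative cells, a log2 difference of -0.82 ± 0.08. Ttr was at 0 in Csf1-positive cells of 3 libraries and at 128 CPM in Control replicate 1, against 127 and 111 CPM in cKO and 525 and 91.7 CPM in Control in Csf1-negative cells. Its fitted value was -2.51, but -7.23 with DESeq2 and -11.36 without Control replicate 1, and none of these is a bound. With no library block it did not pass (adjusted p = 0.0601, edgeR). Within MGnD-high cells 13 of 4740 genes passed. Those higher included Spp1, itself a gene of the state definition (0.75 ± 0.14), Cxcl10 (1.74 ± 0.33), Ccl4 (0.35 ± 0.06) and Ccl3 (0.29 ± 0.07). Those lower included Ifi27l2a (-0.38 ± 0.07) and the division genes Stmn1 (-0.80 ± 0.18) and Hmgb2 (-0.65 ± 0.15).

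**Figure D4:**
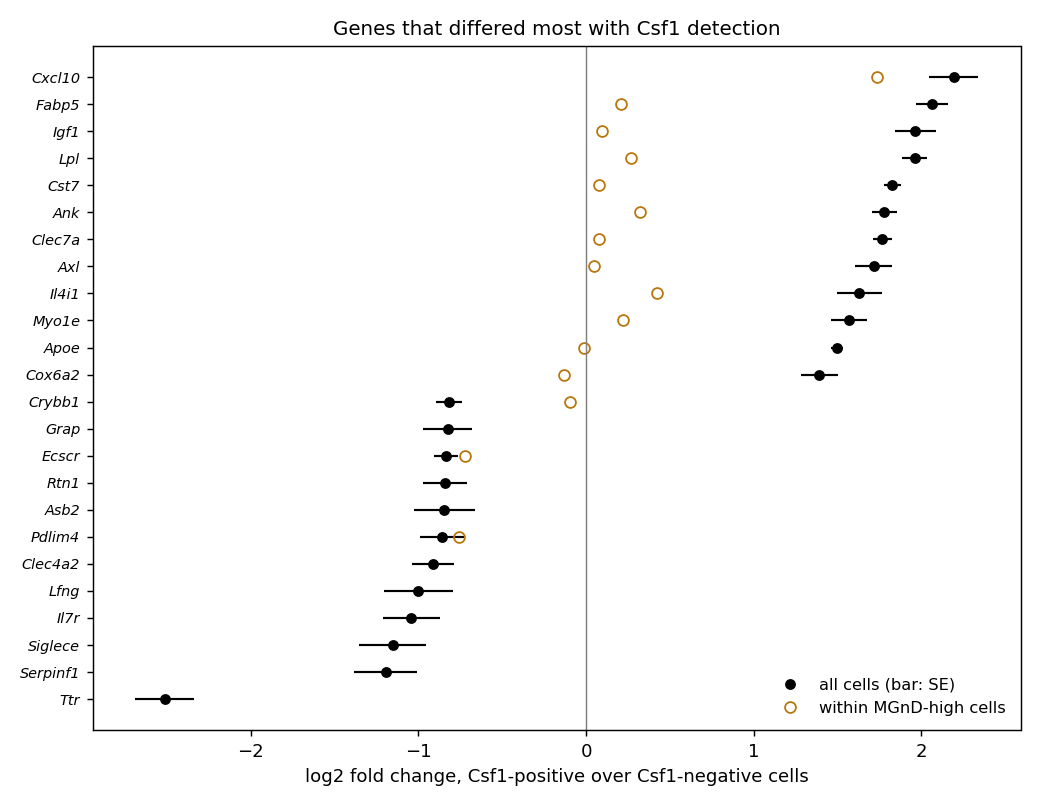
Log2 fold change of Csf1-positive over Csf1-negative cells (x axis) for the 12 genes with the largest change in each direction (y axis), as filled points with the SE from the edgeR fit of 4 libraries, and within MGnD-high cells as open points where tested. Apoe lies at 1.50 over all cells and at -0.01 within MGnD-high cells.

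Between the genotypes none of the 5 members passed the test. In all cells 0 of 13607 genes were called (0%) by edgeR with Benjamini-Hochberg adjustment, with 987 at an unadjusted p under 0.05. DESeq2 called 18, with 643 at an unadjusted p under 0.05. Csf1 had the largest difference of the members, -0.43 ± 0.15 (SE, n = 2 libraries each, adjusted p = 0.685, edgeR, 95% interval -0.78 to -0.09). Csf1r differed by 0.04 ± 0.14 (interval -0.27 to 0.36), Csf2ra by -0.14 ± 0.11, Csf2rb by 0.15 ± 0.09 and Csf3r by 0.06 ± 0.08. The groups did not overlap for 3 of 5 members, against 42.4% of all genes tested.

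The Csf1 value hung on single libraries. Without cKO replicate 1 it was -0.68 and passed (adjusted p = 0.00297, edgeR), and without cKO replicate 2, the library of the other run code, it was -0.23 (adjusted p = 1.00). Without Control replicate 1 it was -0.58 (adjusted p = 0.234), and without Control replicate 2 -0.27. It also passed with no filter on low counts (-0.44, adjusted p = 0.000580, edgeR), where 350 genes did.

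MGnD-high cells made up 15.5% and 7.76% of cells in cKO, against 19.3% and 18.8% in Control. Within MGnD-high cells Csf1 differed by 0.18 ± 0.11 (adjusted p = 0.919, edgeR) and within cells of no state by -0.24 ± 0.14 (adjusted p = 0.957, edgeR), and 0 of 5 members were called in either. Of all genes 0.025% were called in MGnD-high cells (0.0125% higher and 0.0125% lower) and 0.134% in cells of no state (0.0895% higher and 0.0448% lower). With every library set to the same mixture of MGnD gene counts, Csf1 in cells thinned to 2000 UMIs stood at 66.8 and 68.8 CPM in cKO and 60.7 and 64.6 CPM in Control, against 67.2 and 49.5 CPM in cKO and 69.1 and 71.6 CPM in Control at that depth without that step. Thinning alone gave a Csf1 genotype difference of -0.33 (adjusted p = 0.809, edgeR), against -0.43 without thinning. The mixture was chosen after the data were seen. The genotype by state interaction of Csf1 was 0.36 ± 0.16 (adjusted p = 1.00, edgeR), and 0 of 10231 genes passed, with 442 at an unadjusted p under 0.05.

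**Figure D5:**
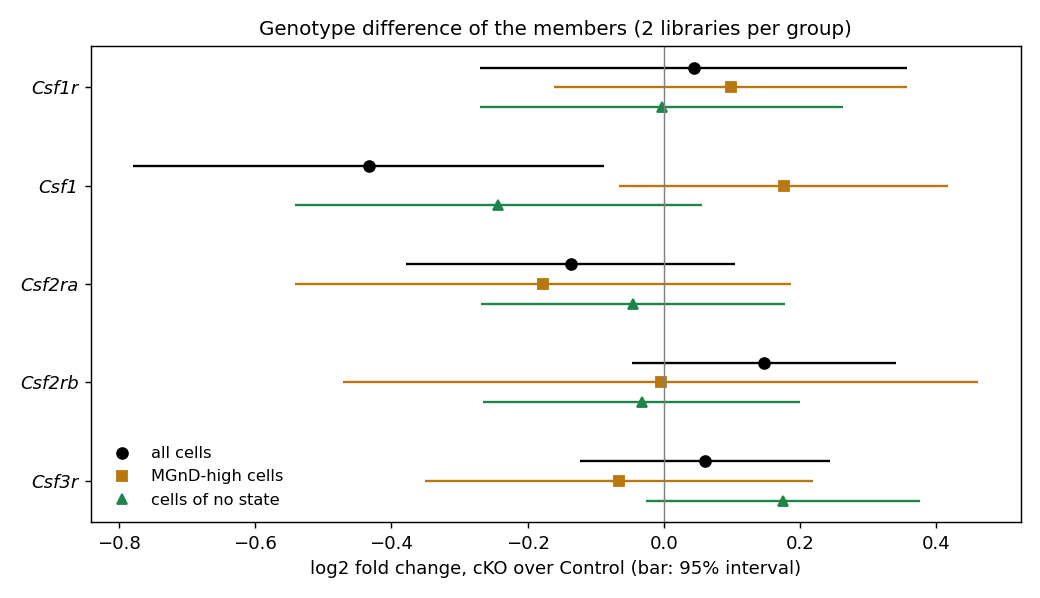
Log2 fold change of cKO over Control (x axis) for each gene (y axis) in all cells, MGnD-high cells and cells of no state, with 95% intervals from edgeR and 2 libraries per group. Csf1 lies at -0.43 in all cells and at 0.18 in MGnD-high cells.

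The Csf1-positive share was 10.3% and 7.91% in cKO, against 10.4% and 11.4% in Control, a difference of -1.76 percentage points (exact permutation p = 0.333, two-sided, the smallest that 2 libraries against 2 allow). Within MGnD-high cells the share was 31.4% and 32.9% in cKO, against 27.4% and 30.1% in Control, a difference of 3.37 percentage points (exact permutation p = 0.333).

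Lists of genes around these receptors were described in the same fits, where the share of all genes called in MGnD-high cells was 20.5% higher and 17.2% lower. Of 22 genes of CSF1R signalling, 0 passed by genotype, with a median of 0.07 against 0.01 over all genes. In MGnD-high cells 3 were higher and 9 lower past the threshold, with a median of -0.15 against -0.03 over all genes, and with plain CPM 1 was higher and 14 lower. With plain CPM the list median was -0.46 against -0.34 over all genes, and 5549 of the 10231 genes tested were called in either direction. Tyrobp, an adaptor of microglial receptors, rose to 7586 ± 393 CPM in MGnD-high cells, against 2964 ± 249 CPM in cells of no state (SD, n = 4 libraries), while Pik3r1, the kinase Lyn and the phosphatase Inpp5d fell. By genotype Tyrobp stood at 3521 ± 572 CPM in cKO, against 4438 ± 96.4 CPM in Control, and Syk, a kinase downstream of it, at 86.5 ± 11.7 CPM in cKO, against 68.7 ± 3.84 CPM in Control (SD, n = 2 each, adjusted p = 0.685 for both, edgeR). Of the genes downstream of the beta chain and the G-CSF receptor, 0 of 15 passed by genotype, and in MGnD-high cells 0 of 14 rose and 3 fell (10 with plain CPM), a share of the list near that of all genes called lower with TMM. With plain CPM the list median was -0.555, against -0.34 over all genes. Among those that fell were Mcl1, a survival factor, and Socs3, a feedback inhibitor of cytokine signals.

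Of 12 transcription factors known to act at Csf1r or in its lineage, 0 passed by genotype and in MGnD-high cells 3 rose and 7 fell, with a median of -0.18. With plain CPM 1 rose and 9 fell, with a median of -0.49 against -0.34 over all genes. Maf fell to 276 ± 23.8 CPM in MGnD-high cells, against 848 ± 45.0 CPM in cells of no state (SD, n = 4 libraries, log2 difference -1.31 ± 0.06). Sall1, a microglial identity factor, fell to 165 ± 27.3 CPM in MGnD-high cells, against 334 ± 19.8 CPM in cells of no state. The 14 dissociation genes were higher in cKO in 14 of 14 cases with a median of 0.31, against 0.01 over all genes, but 0 passed, and 2 passed with plain CPM. Their sum at 2000 UMIs was 11602 and 15427 CPM in cKO, against 11249 and 9900.3 CPM in Control, with cKO replicate 2, the library of the other run code, apart from the rest and cKO replicate 1 close to Control replicate 1. Hspa1b, a heat-shock gene, stood at 243 ± 96.9 CPM in cKO, against 82.8 ± 23.9 CPM in Control (SD, n = 2 each, adjusted p = 0.302, edgeR).

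Few cells of other classes were captured. In 18 cells with at least 3 markers of border macrophages Csf1r stood at 2437 CPM and Csf1 had 2 UMIs. In 33 monocyte-marked cells Csf1r stood at 1023 CPM, Csf2ra at 283 CPM and Csf3r at 145 CPM. Csf1 stood there at 35.7 CPM from 14 UMIs, 12 of them in Control replicate 1. Neutrophil markers, which matter for Csf3r, summed to 213 and 119 CPM in cells of no state in cKO and 149 and 1.21 CPM in Control, and to 0 in cycling cells of all libraries. Only 4 cells had at least 3 neutrophil markers, and their part in the Csf3r values was not tested.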

How the data were processed

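The values deposited by the authors are UMI counts for each pair of gene and barcode. The submitters' processing notes name Cell Ranger 4.0.0 and the mm10 build. Empty droplets were still included, and no normalization had been applied. Barcode and gene names were deposited as other columns, with no measurement. The annotation, strand setting and filters of the counting are not given in the sources used here. The 4 libraries held 41214799 and 33130800 UMIs in cKO and 47574406 and 33889598 in Control.

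Cells were filtered as the report states and thinned without replacement (seed 11). UMIs were summed per library, or per library and state, since cells are not replicates. After filterByExpr and TMM scaling, sums were tested in R 4.3.3 by the quasi-likelihood method of edgeR 4.0.16. Adjusted p-values are Benjamini-Hochberg values over all genes tested (threshold 0.05), with the library as a block in comparisons between cells. DESeq2 1.42.0 was an alternative. CPM values are plain. The SE of an edgeR log2 difference was its absolute value divided by the square root of the F statistic. The script was tested on simulated data. Scrublet (scanpy 1.11.5) called 1 doublet by its own threshold in cKO replicate 1 and 0 in each other library, so no doublets were removed, and removal of the top scores at 0.8% per 1000 cells was an alternative. Floors of 3 counts cover counting error only.

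The members, gene lists, states and tests were chosen with earlier results of these data known. For Csf1-positive cells the genes named were those past 0.05, in the same direction in all 4 libraries, with an average log2 CPM of at least 5, at most 12 per direction, leaving out predicted, ribosomal and mitochondrial genes. Of each list the genes named are among the 4 with the smallest p. Some genes of these lists are not reported here by name. With 2 libraries per group, called biological replicates in the labels, p-values rest on few samples.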

Additional observations from a re-analysis of the deposited data

Results flagged for a closer look

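In cells of the cycling state Csf2ra moved in opposite directions in the 2 genotypes relative to cells of no state. The ratio was 0.999 and 0.340 in cKO, against 1.24 and 1.84 in Control. The lowest, in cKO replicate 2, rests on 1 UMI in 18 cells, and cKO replicate 1 hardly differed from 1. Without thinning Csf2ra stood at 91.6 and 95.1 CPM in cycling cells in cKO, against 98.9 and 84.3 CPM in cells of no state. The cKO libraries then lay on opposite sides of the no-state level.

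In cytokine cells Csf3r was lower than in cells of no state in both cKO libraries, at 0.859 and 0.942 of their level, and higher in both Control libraries, at 1.05 and 1.19. These ratios rest on 45 and 33 UMIs in cytokine cells in cKO and 26 and 33 in Control. Without thinning Csf3r stood at 234 and 198 CPM in cytokine cells in Control, against 225 and 212 CPM in cells of no state. The Control libraries then lay on opposite sides of the no-state level. Neither the Csf2ra nor the Csf3r difference between the genotypes was tested. Both were noticed because, after thinning, every library of one genotype lay on one side of 1 and every library of the other on the opposite side.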

How the results depend on the processing

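Of 907 alternative values, 748 kept their direction and their side of the threshold (counts within 1.5 times), and the cause of the others was not tested. Among the 907, 303 belong to the genes named for Csf1-positive cells, which were chosen for passing the main fit, and 282 of these kept direction and side. A missing adjusted p from DESeq2 was counted as the same side. Csf1, Csf1r and Csf2ra in MGnD-high cells kept direction and side under every alternative run. All fold changes below are log2.

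For the genotype comparison in all cells the count of called genes (0) was 18 with DESeq2, 350 with no filter on low counts, 3 at 2000 UMIs, 4 without cells carrying markers of another class, 1 without MGnD-high cells, 17 with plain CPM and 26 to 613 leaving out 1 library. Csf1 was -0.44 with no filter, and leaving out 1 library gave -0.68 to -0.23 for Csf1, -0.06 to 0.14 for Csf1r and -0.30 to 0.01 for Csf2ra. Csf2rb was -0.02 at 2000 UMIs.

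Deviations of the same-numbered libraries correlated at -0.179 over 9378 genes. With 2 libraries per group this is a single correlation over genes, so it cannot tell whether the replicate numbers pair the samples. With the replicate block 170 genes were called and Csf1 was -0.44 (adjusted p = 0.0207, edgeR), and within MGnD-high cells Csf2rb was 0.0048. With the crossed block 56 genes were called. With no replicate block, that is without the library term, 149 genes were called in cytokine cells, where Csf1r was -0.27 (adjusted p = 0.298, edgeR), and 716 for Csf1-positive cells.

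In MGnD-high cells 6770 genes were called with no thinning, 2327 at 1000 UMIs and 2486 with DESeq2. Csf2rb passed with no thinning (-0.18) and plain CPM (-0.46). Csf3r passed at 0.16 with 1 state gene fewer, with RLE size factors and without cells carrying other markers, at 0.17 without scored doublets and at 0.20 without cells of several states, was -0.15 with plain CPM and ran from 0.04 to 0.21 leaving out 1 library.

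In cytokine cells the count was 1036 with no thinning, 130 at 1000 UMIs, 1286 with 3 of 6 cytokine genes, 155 against all other cells, 122 without cells of several states, 154 with DESeq2 and 186 to 262 leaving out 1 library. Csf1 was 1.00 at 1000 UMIs. Csf1r was -0.23 with DESeq2 and with RLE, -0.22 without cells of several states and -0.32 to -0.25 leaving out 1 library. Csf2ra was 0.19 with no thinning and 0.45 with 3 of 6 genes. Csf2rb was 0.02 with no thinning and -0.39 to 0.0011 leaving out 1 library. Csf3r was 0.18 with 3 of 6 genes, 0.0004 without cells of several states, 0.01 with DESeq2 and -0.13 to 0.04 leaving out 1 library.

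In cycling cells the count was 4138 with no thinning, 760 at 1000 UMIs, 844 without cells of several states, 895 with DESeq2 and 901 to 1333 leaving out 1 library. With no thinning Csf1 was 0.44, Csf2ra 0.33 and Csf2rb -0.58, all past the threshold. At 1000 UMIs Csf1 was -1.49, Csf2ra -0.05 and Csf3r -1.02. Against all other cells Csf1 was -0.29 and Csf2ra -0.11. Without cells of several states Csf2ra was -0.57 and Csf3r -0.82. Csf3r was -0.70 with DESeq2, Csf2ra -0.01 with no filter and Csf2rb -1.40 without scored doublets. Leaving out 1 library gave -0.93 to -0.71 for Csf3r, -0.08 to 0.25 for Csf2ra and -2.29 to -0.84 for Csf2rb.

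For Csf1-positive cells the count was 3018 with no thinning, 589 at 1000 UMIs, 728 with DESeq2 and 13 within MGnD-high cells. Csf1r passed at -0.11 with no thinning and with no filter, at -0.15 at 1000 UMIs and at -0.17 with plain CPM. Csf2ra was 0.37 at 1000 UMIs and 0.12 within MGnD-high cells. Csf2rb was -0.05 with no thinning, -0.04 with plain CPM, -0.16 within MGnD-high cells and -0.02 to 0.14 leaving out 1 library. Csf3r was -0.07 at 1000 UMIs and -0.0049 with plain CPM. Cxcl10 was -0.57 at 1000 UMIs, and within MGnD-high cells Apoe was -0.01 and Cox6a2 -0.13.

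For genotype within MGnD-high cells the count was 13 with 1 state gene more, 6 with 1 fewer and 1 to 22 leaving out 1 library. Csf2rb was 0.11 with no thinning and with 1 state gene more and 0.05 with 1 fewer, and Csf3r 0.06 with no thinning and 0.03 with 1 fewer. Leaving out 1 library gave -0.06 to 0.25 for Csf1r, -0.68 to 0.02 for Csf2ra, -0.10 to 0.06 for Csf2rb and -0.20 to 0.10 for Csf3r. In cells of no state 0 genes were called by edgeR with no thinning and 42 to 130 leaving out 1 library. With no thinning Csf1r was 0.01, Csf2ra 0.0046 and Csf2rb 0.11, and with 1 state gene more Csf1r was 0.01. Leaving out 1 library gave -0.10 to 0.08 for Csf1r, -0.17 to 0.07 for Csf2ra and -0.16 to 0.08 for Csf2rb. For the interaction the count was 1 with no thinning, 8 with 1 state gene more, 4 with 1 fewer and 0 to 2 leaving out 1 library, and Csf2rb was 0.09, 0.04 and -0.05 to 0.03 in the last 3.

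The difference in the Csf1-positive share turned to 3.37 percentage points within MGnD-high cells and 0.557 with the same mixture of MGnD gene counts. Plain CPM, RLE in the state comparisons, the crossed block and that mixture were chosen after seeing the data. Few cells limit the cytokine and cycling states.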
